A study of Homo sapiens with 38 samples.

Results

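HL60, a human acute myeloid leukaemia line with promyelocyte features, releases small extracellular vesicles (sEV), and the RNA of these vesicles was set against the RNA of the cells. The comparison uses 6 of the 38 libraries of the study, 3 of HL60 sEV total RNA and 3 of HL60 cell total RNA, chosen by their titles alone, and covers all 90127 features of the count table. All 6 come from the line labelled wild type. The cells were grown in RPMI-1640 with glutamine, penicillin-streptomycin and 10% FBS, and the vesicles came from cells kept for 2 days in that medium without FBS, so serum and source cannot be told apart. RNA was purified with RNAzol and a Zymo column, and adaptors were ligated to both ends of the RNA before reverse transcription, PCR and size selection on a gel. The isolation of the vesicles is not given in the sources used here. Nothing in the labels says that the replicates are separate cultures. The spread behind each p-value is that between these libraries, which may be technical.

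Small vesicles are membrane particles that form in endosomes or at the cell surface and carry a small part of the cytosol of the cell. Short non-coding RNAs make up most of the RNA reported in them: fragments of tRNA and rRNA, Y RNAs, vault RNAs and miRNAs. RNAs that are kept in the nucleolus, the nucleus or the mitochondria, such as most small nucleolar RNAs (snoRNAs), spliceosomal RNAs and mitochondrial transcripts, reach the cytosol to a smaller extent. A library of this kind gives the share of each RNA among the short RNAs sequenced, not an amount per cell or per vesicle, so fewer vesicles with an RNA and less of it in each cannot be told apart.

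Cell libraries held 14016683 to 14892937 counts and sEV libraries 5498168 to 10408586, with 27100 to 30873 features detected in each. Across the tested features, log2 values of counts relative to the library total (CPM) had Pearson correlations of 0.983 to 0.986 between cell libraries, 0.827 to 0.885 between sEV libraries and 0.73 to 0.85 between the groups. sEV replicate 1 stood apart: 32870.4 CPM of it lay on PCNA, the sliding clamp of DNA polymerase whose gene also holds a snoRNA gene, against 3.59 and 5.67 CPM in the other sEV libraries, and its protein-coding share was 9.07%. Of the features called higher in sEV, 86 had 1 sEV library more than 10 times above both others, and in 80 of these it was replicate 1. Counts are therefore also given without this library. MPO, the granule enzyme that marks HL60, was at 3.57, 2.08 and 1.82 CPM in cells and 2.91, 3.47 and 3.55 CPM in sEV. No gene of the erythroid, platelet, lymphoid or serum miRNA lists had enough counts to be tested; their summed levels were 0.0713, 0.0671 and 0 CPM in cells and 0.546, 0 and 0.48 CPM in sEV for the erythroid list, 0.285, 0.0671 and 1.26 and 9.28, 1.08 and 0.961 CPM for platelets, and 0.713, 0.873 and 1.05 and 81.8, 3.59 and 2.79 CPM for lymphoid cells. The serum miRNA genes summed to 0.0713, 0 and 0.0699 CPM in cells and 1.82, 0 and 0 CPM in sEV. Of the plasma and liver genes only HP, haptoglobin, was tested (21.3, 8.12 and 31.3 CPM in cells and 36.9, 27.6 and 91.1 CPM in sEV), and it was not called (edgeR adjusted p = 0.187), though with the stricter filter it was called higher (2.05 on the log2 scale). Of the epithelial and stromal genes only KRT18 was tested (0.14 on the log2 scale, edgeR adjusted p = 0.87). The part of these markers, and of sEV replicate 1, in the class results was not tested beyond leaving that library out.

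The first question was how far the short RNA of the vesicles departs from that of the cells. Of 7555 features with enough counts, 1048 were called higher in sEV (edgeR adjusted p under 0.05, 13.9% of those tested) and 970 were called lower (12.8%), together 26.7%. Without sEV replicate 1 these counts were 1230 and 1469, of 9657 tested. Calls of a higher level depended on all 3 cell libraries. With any one of them left out, 69 to 100 features were called higher and 435 to 531 lower, of 8680 to 9021 tested. In all 6 fits that left out 1 library, 60 features stayed called higher and 406 stayed called lower. Shares are given with their SD over 3 libraries, and log2 fold changes (sEV over cells, after TMM scaling) with their SE from edgeR. CPM values stand in the order of replicates 1, 2 and 3, relative to the library total, and abundance means counts, without regard to length. The median log2 fold change of all tested features was 0.16, and 0.44 when libraries were scaled by their totals alone, which called 1397 features higher and 781 lower (64.1% of calls higher, against 51.9%). The scaling also moved with the filter: over the 1000 features of at least 10 CPM in 3 libraries the fold change of the RNase P entry was 3.17 in place of 2.28. Small changes in either direction thus depend on the features used for scaling.

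By class, the vesicles held more tRNA and less precursor miRNA, lncRNA and snoRNA than the cells. The tRNA share of a library was 19.7, 20.7 and 20.1% in cells and 39, 31.7 and 41.5% in sEV, a mean of 20.2% ± 0.508 to 37.4% ± 5.1. Precursor miRNA entries went from 20.7% ± 3.05 to 11% ± 1.07, with 22.2, 17.2 and 22.7% in the cell libraries and 11.1, 12 and 9.9% in the sEV libraries. Entries typed only as ncRNA went from 6.12% ± 0.991 to 3.85% ± 0.478, and snoRNA from 3.89% ± 0.244 to 1.5% ± 0.248. Small Cajal body RNAs (scaRNAs), which guide the modification of spliceosomal RNAs, went from 0.216% ± 0.0552 to 0.0733% ± 0.0251. For these classes no sEV library overlapped a cell library. Mitochondrial tRNA showed the largest relative gap among classes above 0.001% of counts, from 0.0901% ± 0.0334 to 0.00591% ± 0.00118.

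Some small classes were larger in the vesicles. The RNA of RNase P, the enzyme that trims the 5′ end of precursor tRNA, made 0.00803, 0.00778 and 0.00775% of cell libraries and 0.0517, 0.0316 and 0.0567% of sEV libraries, 5.94 times as much on average. The 7SL RNA of the signal recognition particle, which guides ribosomes to the endoplasmic reticulum, made 0.0125% ± 0.00138 to 0.0456% ± 0.0186 of counts, and the misc_RNA class, which holds the Y RNAs, 0.0155% ± 0.000921 to 0.0483% ± 0.0195. Both were higher in every sEV library than in any cell library. The rRNA share overlapped between the groups, at 14.6, 13.7 and 12.7% in cells and 14.1, 29.9 and 18.1% in sEV, with replicate 2 of the vesicles highest. Mature miRNA entries overlapped too, at 3.92% ± 0.599 to 3.32% ± 0.438. Of 23 classes above 0.001% of counts in a group, 12 were higher and 7 lower in sEV without overlap, and 4 overlapped. Lack of overlap was common among single features too, with 2039 of 7555 tested higher and 1311 lower. Class shares add up to the whole library, so they are not independent of each other. With 3 against 3 libraries the smallest exact two-sided permutation p is 0.1, so no class share could pass a threshold of 0.05.

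**Figure D1:**
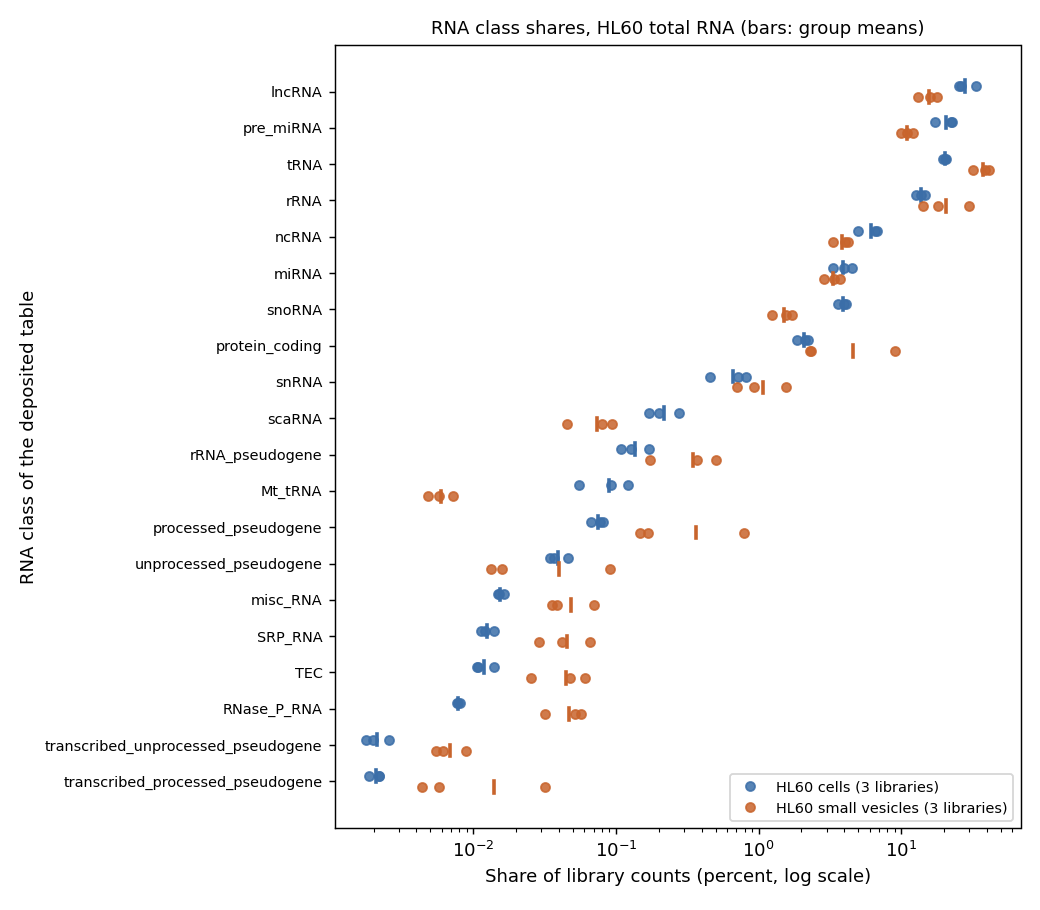
Share of each RNA class in the 6 HL60 total RNA libraries (x axis, percent of library counts on a log scale; points are libraries, short bars group means, blue cells, orange sEV). The tRNA points of sEV (31.7% to 41.5%) lie right of those of cells, and the Mt_tRNA points of sEV lie far to the left of those of cells.

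The lncRNA share went from 28.2% ± 4.35 to 15.6% ± 2.43, and most of it was 1 feature. An lncRNA with no symbol in GENCODE 29 (ENSG00000286171.1) was the most abundant feature of 5 of the 6 libraries, at 24.3%, 32.4% and 25.1% of counts in cells and 13.0%, 9.91% and 16.8% in sEV (log2 fold change -1.34 ± 0.28, edgeR adjusted p = 0.00998). With the stricter filter it was -0.45 and not called. Its position was not looked up outside GENCODE 29. As a share of all counts, all other lncRNAs together were higher in sEV. They made 1.04%, 0.81% and 0.978% in cells and 2.82%, 3.13% and 1.10% in sEV. With ENSG00000286171.1 left out of the total, they made 1.38%, 1.20% and 1.31% in cells and 3.24%, 3.48% and 1.33% in sEV. On that total sEV replicate 3 lay below cell replicate 1, so the groups overlapped. These lncRNAs include some inside rRNA genes, described below, whose reads cannot be told apart from rRNA. Their part in the rise was not tested.

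Feature by feature, classes differed in how many members were called. The background is the 13.9% called higher and 12.8% called lower among all features. Of 21 tested mitochondrial tRNAs, 19 were called lower and none higher (median log2 fold change -5.12). Precursor miRNA entries had 94 of 223 called lower and 18 higher (-0.90), mature miRNA entries 80 of 223 lower and 15 higher (-0.98), and entries typed ncRNA 64 of 152 lower and 9 higher (-0.93). Many of these may be the same reads, since 20 sets of entries of at least 50 CPM from these 3 types, 55 entries in all, had log2 counts within 0.2 of each other in every library. Of 27 misc_RNA features 12 were called higher and 2 lower (1.37), and of 7 entries of 7SL RNA 5 were called higher and none lower (1.59), but 0 with any cell library or sEV replicate 2 left out. Among 5019 protein-coding genes, 577 were called higher and 261 lower (median 0.23), 11.5% and 5.2% of those tested, and lncRNAs had 88 higher and 198 lower of 598 (-0.92). With cell replicate 1, 2 or 3 left out the lncRNA median turned to 0.39, 0.34 and 0.51. These fits called 19 to 23 lncRNAs higher and 82 to 102 lower, of 825 to 889 tested. For protein-coding genes the median was -0.57 over the 104 that passed the stricter filter. Leaving out each library in turn gave 24 to 1443 protein-coding genes called higher, 62 to 102 precursor miRNA entries lower and 69 to 154 tRNA entries lower. Those fits tested 5760 to 7101 protein-coding genes, 223 to 237 precursor miRNA entries and 449 to 468 tRNA entries.

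**Figure D2:**
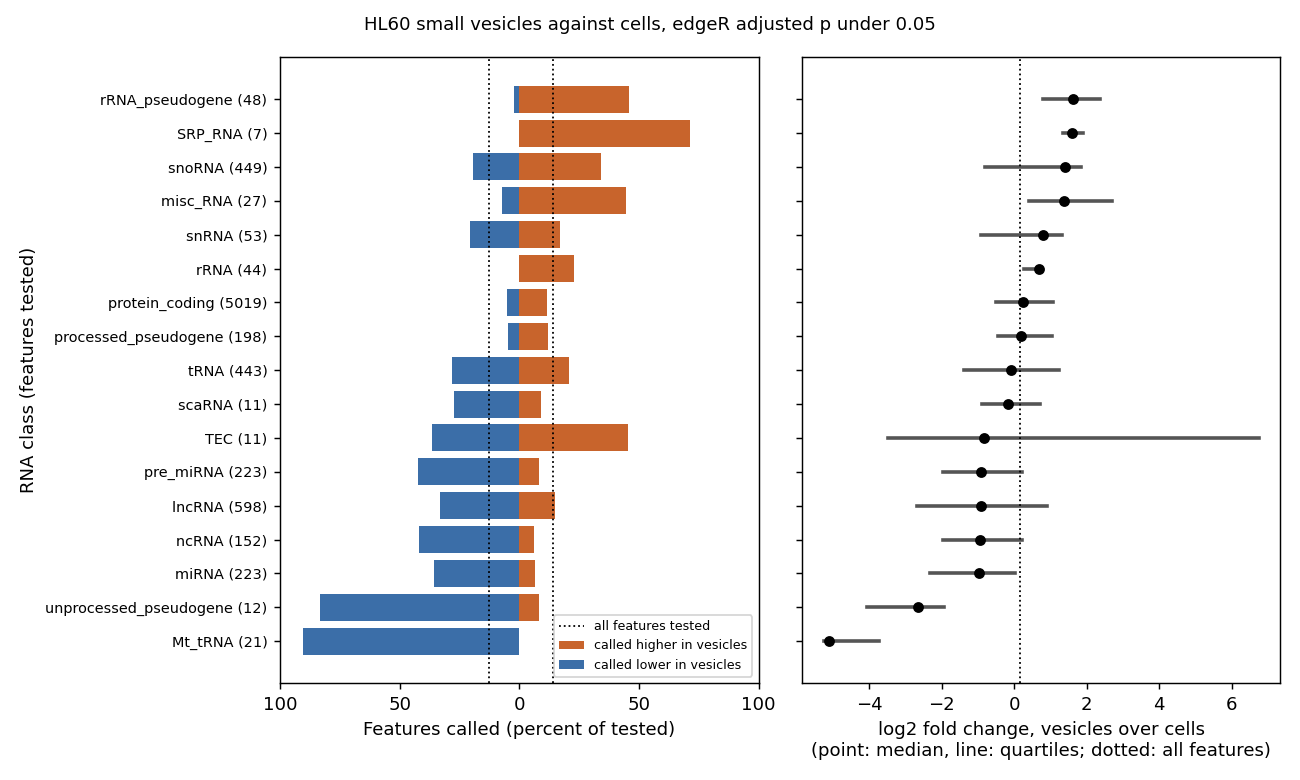
Left: percent of tested features of each RNA class called higher (orange, to the right) or lower (blue, to the left) in sEV; dotted lines mark all features, 13.9% and 12.8%. Right: median log2 fold change (point) and quartiles (line) of each class with at least 7 tested features, from 1.63 for rRNA pseudogenes to -5.12 for mitochondrial tRNAs, beside 0.16 for all features.

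The clearest group was that of RNAs made inside mitochondria, all of them transcribed from the small circular genome of that organelle and processed there. Of 36 tested mitochondrial RNAs 32 were called lower in sEV and none higher, with a median log2 fold change of -3.66; 18 stayed called in all 6 fits that left out 1 library, and without sEV replicate 1 all 37 tested were called lower, the most in any of these fits, which called 19 to 37. MT-TN, the tRNA for asparagine, fell furthest among the mitochondrial RNAs, with 504, 428 and 196 CPM in cells and 2.55, 1.32 and 2.59 CPM in sEV (log2 fold change -7.74 ± 0.57, edgeR adjusted p = 0.00068). Every cell library was far above every sEV library. MT-TK, the lysine tRNA, had 25.5, 13.3 and 9.44 CPM in cells and 0.182, 0 and 0.0961 CPM in sEV (log2 fold change -7.65 ± 0.88, edgeR adjusted p = 0.00112), and MT-TL2, 1 of the leucine tRNAs, had 66.9, 35.2 and 18.9 CPM in cells and 0, 0.359 and 0.384 CPM in sEV (log2 fold change -7.41 ± 0.91, edgeR adjusted p = 0.00137). Both were close to the detection limit in sEV. At the other end MT-TV, the valine tRNA, fell less, from 98.4, 56.5 and 72.8 CPM to 10.9, 30.3 and 19.5 CPM (log2 fold change -2.11 ± 0.49, edgeR adjusted p = 0.0137). Only MT-TC and MT-TS1 among the tested mitochondrial tRNAs were not called in the fit of all 6 libraries (log2 fold changes -1.57 ± 0.54 and -0.70 ± 0.85, edgeR adjusted p = 0.0582 and 0.579). MT-TS1, a serine tRNA, was at 19, 12.6 and 12.5 CPM in cells and 26.7, 3.35 and 2.5 CPM in sEV, where replicate 1 lay above the cells and the other 2 below.

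The 5 tRNAs are shown because they span the range from the largest fall to no call; capitals mark the anticodon, found as its 3 letters after a T between bases 28 and 40. Sequences are the GENCODE 29 transcripts on GRCh38 (MT-TN chrM:5657-5729, minus strand; MT-TL2 chrM:12266-12336, plus strand; MT-TK chrM:8295-8364, plus strand; MT-TV chrM:1602-1670, plus strand; MT-TS1 chrM:7446-7514, minus strand), without the CCA that is added to the 3′ end.
MT-TN: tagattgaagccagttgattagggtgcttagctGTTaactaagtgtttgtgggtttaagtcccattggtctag
MT-TL2: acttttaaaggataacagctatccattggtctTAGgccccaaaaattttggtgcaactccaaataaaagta
MT-TK: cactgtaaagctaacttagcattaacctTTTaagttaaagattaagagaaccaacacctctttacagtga
MT-TV: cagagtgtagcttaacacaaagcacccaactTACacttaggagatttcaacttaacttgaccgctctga
MT-TS1: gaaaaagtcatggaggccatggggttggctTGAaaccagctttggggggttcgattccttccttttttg

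The mRNAs of the respiratory chain, which mitochondria also make, followed with smaller falls. Of the 13, 11 were called lower (median -2.32). MT-ND1, a subunit of complex I, had 573, 462 and 431 CPM in cells and 44, 21.6 and 29.5 CPM in sEV (log2 fold change -4.22 ± 0.38, edgeR adjusted p = 0.00068), and MT-CO3, a subunit of cytochrome c oxidase, had 244, 197 and 166 CPM in cells and 24.7, 10.4 and 20.9 CPM in sEV (log2 fold change -3.72 ± 0.41, edgeR adjusted p = 0.00105). The groups did not overlap for either. MT-CYB of complex III fell by 3.08 and MT-CO1 by 2.52 on the log2 scale (edgeR adjusted p = 0.00622 and 0.00273). MT-ND4 of complex I fell by 1.71 (edgeR adjusted p = 0.0243). Its call was lost with library totals, with the stricter filter, and with any cell library or sEV replicate 2 left out. MT-ND4L and MT-ATP6 missed the threshold (-1.97 ± 0.70 and -1.60 ± 0.52, edgeR adjusted p = 0.0668 and 0.0505). In sEV replicate 1 most of these mRNAs were higher than in replicates 2 and 3, for MT-CYB 55.1 against 15 and 14.2 CPM. Both mitochondrial rRNAs were called lower, MT-RNR1 (12S) at 30.2, 18.3 and 17.2 CPM in cells and 0.546, 2.28 and 3.55 CPM in sEV (log2 fold change -3.60 ± 0.68, edgeR adjusted p = 0.00645) and MT-RNR2 (16S) with -2.64 ± 0.62 (edgeR adjusted p = 0.0144), but neither stayed called in every fit that left out 1 library. MTCO2P12, a nuclear pseudogene copied from the mitochondrial MT-CO2 whose reads cannot be fully told apart from it, went from 188, 168 and 105 CPM to 12.2, 6.83 and 10.8 CPM (-4.24 ± 0.43, edgeR adjusted p = 0.00093).

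**Figure D3:**
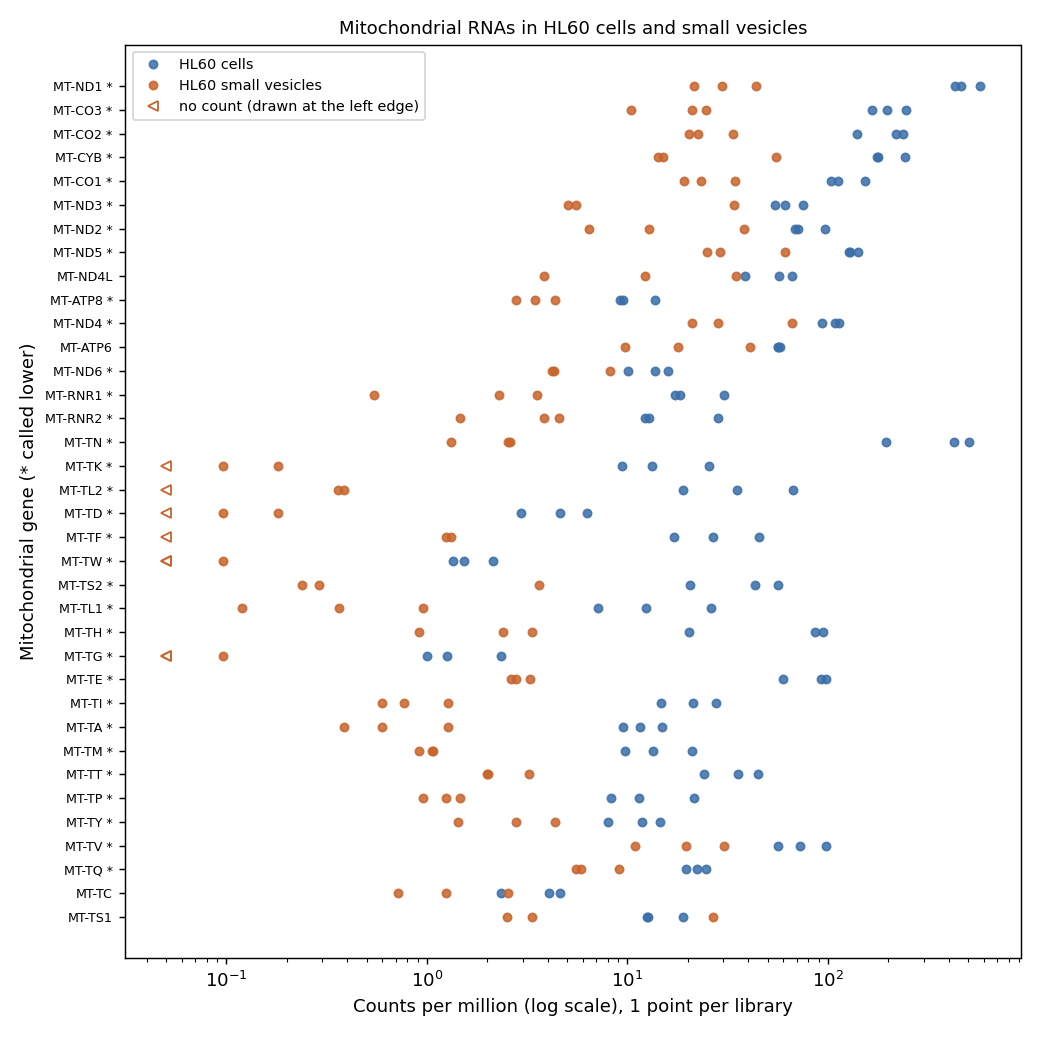
CPM (log scale) of the 36 tested mitochondrial RNAs in each library (blue cells, orange sEV; open triangles are libraries with no count, drawn at the left edge; an asterisk marks genes called lower). For MT-TN the lowest cell library is at 196 CPM and the highest sEV library at 2.59, and for MT-TS1 the groups overlap.

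Within the tRNA class counts lay on fewer entries in sEV than in cells. Cytosolic and other tRNA entries of RNAcentral have no gene name in the references used here and are described as a class. Of 443 tested, 92 were called higher and 124 lower, against 13.9% and 12.8% of all features, and their median log2 fold change was -0.10 (0.21 when scaled by library totals). With the stricter filter 116 of 327 were called higher and 76 lower, with a median of 0.30. The 92 entries called higher summed to 56982, 71571 and 57596 CPM in the cell libraries and 281363, 239124 and 293165 CPM in the sEV libraries. The 124 called lower went the other way, from 67489.6, 62558 and 74669.9 CPM to 18818, 16918 and 20762 CPM. These sums describe entries already chosen by their call. The 10 most abundant tRNA entries of a library made 36.3% of its tRNA counts in cells and 56% in sEV, on average. Of the 20 entries most abundant in cells 8 were called higher and 5 lower, and of the 20 most abundant in sEV 16 higher and none lower. Of the 221 entries below the median level 56 were called higher and 37 lower. The entry most abundant over the 6 libraries had 5517, 10056 and 6789 CPM in cells and 26996, 22531 and 36493 CPM in sEV (log2 fold change 1.63 ± 0.34, edgeR adjusted p = 0.0092). Among entries of at least 50 CPM, 26 sets, 82 entries in all, shared reads by the rule of 0.2 on the log2 scale, so the number of distinct tRNAs is smaller than the number of entries. Only 6 of the 92 entries called higher, but 69 of the 124 called lower, stayed called in every fit that left out 1 library.

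snoRNAs, which guide the chemical modification of rRNA in the nucleolus, had calls in both directions. Of 449 tested, 154 were called higher and 87 lower, and the class median was 1.40, yet the class lost share. Among the 72 entries that passed the stricter filter 15 were called higher and 35 lower, with a median of -1.09. The 87 called lower held 38844, 37087 and 33528 CPM in cells and 8823, 11214 and 12356 CPM in sEV; the 154 called higher held 222, 216 and 274 CPM and 1453, 1654 and 1747 CPM. Again these entries were chosen by their call. Of the 20 most abundant in cells 16 were called lower and none higher, and of the 20 most abundant in sEV 10 lower and 3 higher. The entry most abundant over the 6 libraries had 14895, 17176 and 16639 CPM in cells and 6072, 7899 and 8842 CPM in sEV (log2 fold change -1.36 ± 0.27, edgeR adjusted p = 0.0078). Of the 154 entries called higher 1, and of the 87 called lower 52, stayed called with every library left out in turn. The entries called higher had a median of 1.1 CPM in cells and 4.85 CPM in sEV, so they rest on few counts. The number called higher was 224 without sEV replicate 1 and 1 in the smallest of the fits that left out 1 library.

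Most named snoRNA genes that were called were lower. Among box C/D genes, which guide methylation of ribose, 9 of 19 tested were called lower and 1 higher (median -1.28). SNORD36C had 5.49, 5.71 and 4.54 CPM in cells and 0, 0 and 0.0961 CPM in sEV (log2 fold change -6.93 ± 0.77, edgeR adjusted p = 0.00105). SNORD38A went from 114, 100.05 and 150.2 CPM to 55.8, 80.6 and 64.8 CPM (-1.08 ± 0.35, edgeR adjusted p = 0.0462). SNORD62B was the one called higher (1.90 ± 0.52, edgeR adjusted p = 0.0265). That call was lost with no filter, with the replicate block, and with any cell library or sEV replicate 3 left out. Among box H/ACA genes, which guide the conversion of uridine to pseudouridine, 7 of 25 were lower and 2 higher (median -0.73). SNORA5C had 17.9, 16.2 and 11.5 CPM in cells and 0.909, 1.56 and 0.576 CPM in sEV (log2 fold change -4.12 ± 0.63, edgeR adjusted p = 0.00304), while SNORA79 and SNORA80D were called higher (1.47 ± 0.48 and 3.39 ± 0.99, edgeR adjusted p = 0.0492 and 0.034). The SNORA79 call was lost in 10 of the alternatives, among them the replicate block and each cell library left out. Of these lists the stricter filter left 5 H/ACA genes, with a median of 0.75, and with a cell library left out 2 to 4 H/ACA and 2 or 3 C/D genes were called lower. Of scaRNA genes 1 of 5 tested was called in each direction. SCARNA6 had 482, 627 and 463 CPM in cells and 143, 284 and 330.1 CPM in sEV (log2 fold change -1.33 ± 0.39, edgeR adjusted p = 0.0338), and SCARNA11 8.99, 10.1 and 10.9 CPM in cells and 55.7, 74.8 and 84.8 CPM in sEV (log2 fold change 2.58 ± 0.39, edgeR adjusted p = 0.00318). The SCARNA6 call was lost with library totals, with the stricter filter and with any cell library left out, and that of SCARNA11 without cell replicate 1 or 3.

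**Figure D4:**
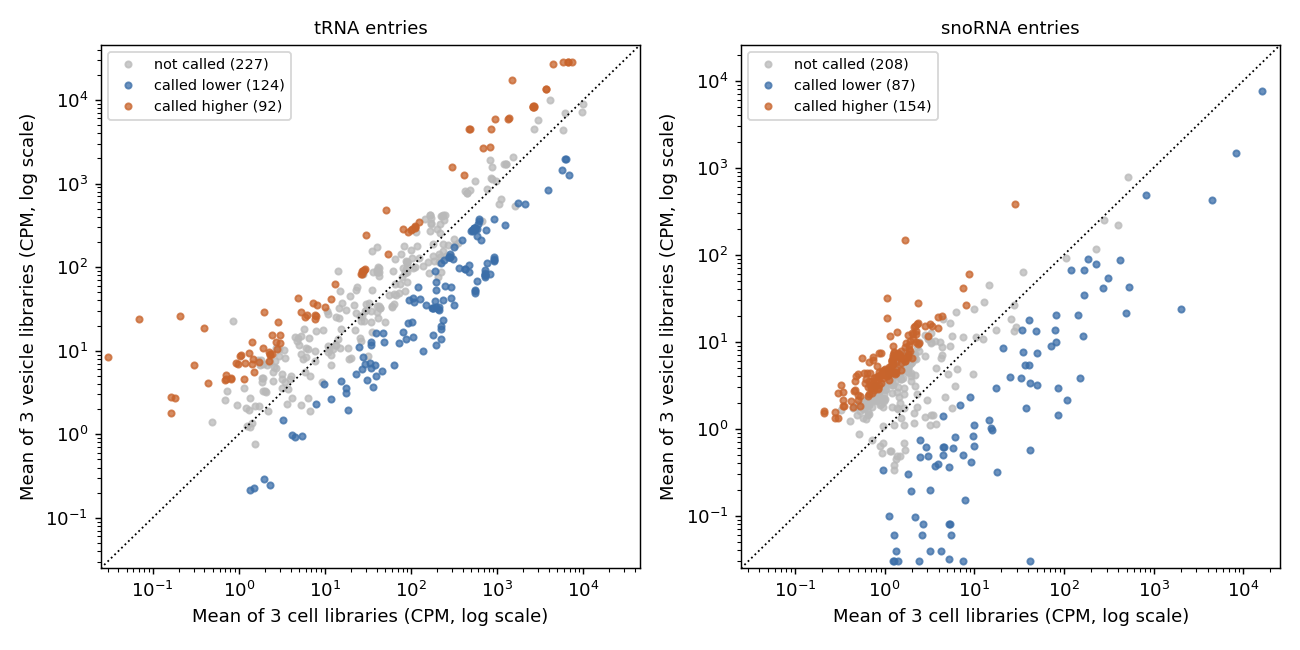
Mean CPM of each tested tRNA entry (left) and snoRNA entry (right) in the 3 cell libraries (x, log scale) and the 3 sEV libraries (y, log scale), with means under 0.03 CPM drawn at 0.03; orange called higher, blue called lower, grey not called, dotted line equal levels. In tRNA the entries called higher (92) include those at the top right, and in snoRNA they (154) sit mostly at low levels while many abundant entries are called lower (87 in all).

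Of 25 tested genes that host snoRNAs in their introns, 10 were called lower and 1 higher (median -1.08). With a cell library left out 2 or 3 were called lower, and with the stricter filter 3 of 11 were called higher and 2 lower (median 0.04). Their reads cannot be told apart from those of the hosted snoRNAs, as the counting of nested genes is not given in the sources used here. GAS5 had 273, 201 and 232 CPM in cells and 24.9, 38 and 49.96 CPM in sEV (log2 fold change -2.90 ± 0.36, edgeR adjusted p = 0.00143), and ZFAS1 40.4, 25.5 and 32 CPM in cells and 3.27, 2.28 and 4.8 CPM in sEV (log2 fold change -3.51 ± 0.46, edgeR adjusted p = 0.00176). SNHG3 was the one called higher, with 19.5, 22.6 and 28.7 CPM in cells and 108, 91.9 and 50.2 CPM in sEV (log2 fold change 1.59 ± 0.44, edgeR adjusted p = 0.0272). The same caution holds for RPL4, a protein of the large ribosomal subunit whose gene holds snoRNAs, with 339.95, 556 and 452 CPM in cells and 28.6, 37.3 and 33.9 CPM in sEV (log2 fold change -4.03 ± 0.39, edgeR adjusted p = 0.000779), and for TMEM107, which overlaps the U8 snoRNA gene SNORD118, with 2795, 2680.5 and 2983 CPM in cells and 301, 355 and 715 CPM in sEV (log2 fold change -2.91 ± 0.35, edgeR adjusted p = 0.00134). In these 4 falls the groups did not overlap.

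Of the 3 tested Y RNA genes, RNY4 was called higher in sEV. Y RNAs are hairpin RNAs made by RNA polymerase III that bind the Ro60 protein. RNY4 had 2.93, 3.76 and 3.01 CPM in cells and 19.6, 14.6 and 13.2 CPM in sEV (log2 fold change 2.02 ± 0.48, edgeR adjusted p = 0.0154), with no overlap. RNY1 was not called, with 50.2, 58.2 and 41.3 CPM in cells and 80.8, 61.1 and 63.6 CPM in sEV (0.18 ± 0.36, edgeR adjusted p = 0.75), nor was RNY3, with 10.5, 12.5 and 11.5 CPM in cells and 26.2, 27 and 23.8 CPM in sEV (0.90 ± 0.41, edgeR adjusted p = 0.141). The differences between these genes were not tested. With the stricter filter all 3 were called higher, and with any cell library left out none was. Copies of RNY4 in the genome went with it. Of 10 tested features named RNY4 or as its pseudogene, 9 were called higher and none lower, a group put together after its values were seen, with a median of 2.84. Fits that left out 1 library called 2 to 10 of them. RNY4P6, the most abundant of them, had 3.21, 3.29 and 2.66 CPM in cells and 149, 45.8 and 77.4 CPM in sEV (log2 fold change 4.60 ± 0.55, edgeR adjusted p = 0.00121), and RNY4P17 0.428, 1.48 and 1.12 CPM in cells and 55.5, 17.5 and 23 CPM in sEV (log2 fold change 4.66 ± 0.74, edgeR adjusted p = 0.00354). Summed over these genes the level was 16.3, 22.2 and 13.8 CPM in cells and 326, 142 and 164 CPM in sEV. All Y RNA genes and copies named as such gave 12 called higher of 23 tested and none lower.

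The sequences show how close these features are and how far RNY1 stands from RNY4. RNY4 and RNY4P6 match in 92 of 96 bases (95.8%), so short reads can fit both; capitals mark the 4 bases at which they differ. RNY1, printed with no capitals, aligns to RNY4 with 76.8% identical bases. All 3 are GENCODE 29 transcripts on GRCh38 (RNY4 chr7:148963315-148963410, plus strand; RNY4P6 chr11:117015897-117015992, plus strand; RNY1 chr7:148987136-148987248, minus strand).
RNY4: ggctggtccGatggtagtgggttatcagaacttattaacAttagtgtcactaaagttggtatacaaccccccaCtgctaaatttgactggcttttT
RNY4P6: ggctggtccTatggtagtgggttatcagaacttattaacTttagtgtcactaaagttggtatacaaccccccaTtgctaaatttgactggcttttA
RNY1: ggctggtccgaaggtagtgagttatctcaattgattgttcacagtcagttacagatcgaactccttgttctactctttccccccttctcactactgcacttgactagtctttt

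Vault RNA and the RNA of RNase P were called higher as well. VTRNA1-3, a vault RNA, part of the vault particle of the cytosol, had 1.43, 1.14 and 2.73 CPM in cells and 21.3, 37.5 and 20.4 CPM in sEV (log2 fold change 3.70 ± 0.59, edgeR adjusted p = 0.00354), a call lost without cell replicate 1 or 2. Its sequence, the GENCODE 29 transcript on GRCh38 at chr5:140726158-140726246, plus strand, is shown because it was the only vault RNA with enough counts; VTRNA1-2 had 5, 4 and 8 counts in cells and 3, 13 and 11 in sEV, and VTRNA1-1 was listed at 0 in all 6 libraries.
VTRNA1-3: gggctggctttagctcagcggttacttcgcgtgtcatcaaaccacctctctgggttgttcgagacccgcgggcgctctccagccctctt
The single RNase P entry, from RNAcentral, had 80.3, 77.8 and 77.5 CPM in cells and 517, 316 and 567 CPM in sEV (log2 fold change 2.28 ± 0.31, edgeR adjusted p = 0.00195), and stayed called with any library left out. RN7SL1, the one 7SL gene with a symbol that was tested, had 1.85, 2.08 and 1.96 CPM in cells and 2.18, 8.63 and 1.44 CPM in sEV and was not called (edgeR adjusted p = 0.403). The genes for 7SK, RNase P, RNase MRP and telomerase RNA (RN7SK, RPPH1, RMRP and TERC) had no member tested. RNU5A-1, RNU11, RNU12, RNU2-1, RN7SL2, MIR21 and MIR223 were listed at 0 counts in all 6 libraries, and no feature is named RNY5; RNAcentral entries held 55.0% to 72.8% of counts, so a symbol at 0 does not show that the RNA was scarce.

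Spliceosomal RNAs, are the nuclear RNAs that cut introns out of transcripts. Of 11 tested genes 4 were called lower and none higher (median -0.40), and 3 of the 4 were U5 genes. RNU5B-1, which pairs with exon ends during splicing, had 1653, 714 and 729.9 CPM in cells and 154, 76 and 244 CPM in sEV (log2 fold change -2.99 ± 0.47, edgeR adjusted p = 0.00354), and RNU5F-1 126, 50.4 and 76.2 CPM in cells and 3.46, 3.95 and 18 CPM in sEV (log2 fold change -3.60 ± 0.68, edgeR adjusted p = 0.00632). With the copy RNU5E-4P (-3.03 ± 0.64), 4 of 5 tested U5 genes and copies were lower, a grouping made after the values were seen; only RNU5B-1 stayed called with any library left out. Of 5 tested genes and copies of U4, its partner in the tri-snRNP, 1 was called higher and 1, RNU4-36P, lower. The RNU4-36P call was lost under several settings, among them library totals and the stricter filter. The difference between families was not tested. RNU4-2 was not called, with 814, 261 and 763 CPM in cells and 476, 475 and 674 CPM in sEV (-0.40 ± 0.39, edgeR adjusted p = 0.481), and RNU4-1 0.35 ± 0.38 (edgeR adjusted p = 0.533). RNU6-9, a U6 gene, went from 7.35, 3.22 and 4.82 CPM to 0.182, 0.599 and 0.48 CPM (log2 fold change -3.74 ± 0.58, edgeR adjusted p = 0.0034). Among U2 genes and copies 3 of 7 were called higher, also a grouping made after the values were seen. The most abundant snRNA entry of RNAcentral was called higher, with 2423, 2509.5 and 4459.9 CPM in cells and 7365, 5358 and 13107 CPM in sEV (log2 fold change 1.17 ± 0.36, edgeR adjusted p = 0.0393), and the class share had means from 0.661% ± 0.182 to 1.07% ± 0.448, with overlap.

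Among entries of miRNAs, the short guides of gene silencing, and of their precursors, more were called lower than higher. Of 223 mature entries 80 were lower and 15 higher, and of 223 precursor entries 94 were lower and 18 higher. Among all features 12.8% were called lower and 13.9% higher. With the stricter filter the medians were -0.24 and -0.33, with 15 higher and 26 lower of 83 mature entries and 20 higher and 47 lower of 134 precursors. The most abundant precursor entry had 76466, 56393 and 73491 CPM in cells and 12144, 11239 and 14558 CPM in sEV (log2 fold change -2.70 ± 0.24, edgeR adjusted p = 0.00068), far apart between the groups. The next had 13923, 11978 and 16854 CPM in cells and 17804, 21865 and 14045 CPM in sEV and was not called (edgeR adjusted p = 0.821). The 94 precursor entries called lower summed to 168286, 128281 and 166240.3 CPM in cells and 48971, 45559 and 47286 CPM in sEV, and 60 of them stayed called in every fit that left out 1 library. Of 24 miRNA genes with an Ensembl identifier 6 were called lower and 1 higher. MIR7977 had 42.5, 27.5 and 42.1 CPM in cells and 11.8, 5.99 and 9.8 CPM in sEV (log2 fold change -2.28 ± 0.43, edgeR adjusted p = 0.00625), MIR4420 33.7, 20.1 and 16.8 CPM in cells and 0.364, 1.68 and 0.384 CPM in sEV (log2 fold change -5.01 ± 0.79, edgeR adjusted p = 0.00354), and MIR378A 5.07, 6.18 and 5.73 CPM in cells and 1.82, 0.719 and 2.02 CPM in sEV (log2 fold change -2.20 ± 0.51, edgeR adjusted p = 0.0138). MIR30C1 fell by 2.93 on the log2 scale (edgeR adjusted p = 0.0199). The calls of MIR378A and MIR30C1 were lost with any cell library left out. MIR6087 was the one called higher, with 0.214, 0.336 and 0.629 CPM in cells and 21.5, 169 and 2.02 CPM in sEV (log2 fold change 7.20 ± 1.56, edgeR adjusted p = 0.0109), a wide spread among sEV libraries. Its call was lost with no filter and with any cell library left out. MIR7977 and MIR6087 are both in the list of miRNA genes of high copy in vesicles or prone to fragment reads. Whether their reads come from mature miRNAs was not tested. Of the myeloid miRNA genes MIR29A, MIR183 and MIR15B were tested and none was called (-1.57 ± 0.52, -2.12 ± 0.71 and -1.0 ± 0.75; edgeR adjusted p = 0.0526, 0.0552 and 0.36), and no let-7 gene had enough counts.

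Mature sequences of the named miRNAs called lower are from RefSeq on GRCh38.p14, which held a mature sequence for 19 of the 23 tested miRNA genes with a symbol. Capitals mark the seed, bases 2 to 8, which pairs with targets. None of the seeds is shared. The counts are per gene and do not tell the arms apart (MIR7977 chr3:176515103-176515120, plus strand; MIR4420 chr1:30739158-30739179, minus strand; MIR378A, 3p arm, chr5:149732867-149732888, plus strand; MIR30C1, 5p arm, chr1:40757300-40757322, plus strand).
hsa-miR-7977: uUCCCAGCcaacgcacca
hsa-miR-4420: gUCACUGAugucuguagcugag
hsa-miR-378a-3p: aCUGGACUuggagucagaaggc
hsa-miR-30c-5p: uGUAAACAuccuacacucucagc

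In the rRNA class, which leaves out mitochondrial rRNAs and rRNA pseudogenes, all features called were higher in sEV. A pair of RNAcentral rRNA entries were called higher by a wide margin, one with 1708, 1578 and 1721 CPM in cells and 20724, 35777 and 16006 CPM in sEV (log2 fold change 3.64 ± 0.41, edgeR adjusted p = 0.00106) and the other with 1081, 904 and 935 CPM in cells and 15845, 26754 and 12399 CPM in sEV (log2 fold change 4.02 ± 0.41, edgeR adjusted p = 0.000938), and both stayed called with any library left out. The most abundant rRNA entry was not called (68696, 42313 and 43204 CPM in cells and 55905, 127967 and 52803 CPM in sEV; edgeR adjusted p = 0.503), nor was RNA5-8SN2, 1 of 10 copies of the 5.8S rRNA gene that share reads (7309.6, 9058 and 7791 CPM in cells and 4545, 10263 and 9174 CPM in sEV; edgeR adjusted p = 0.625). Of 44 rRNA features 10 were called higher and none lower (29 of 40 with the stricter filter, and 2 to 4 with a cell library left out), and of 48 rRNA pseudogenes 22 higher and 1 lower. Also higher were 4 lncRNAs of 923 bases each that lie on the minus strand of chromosome 21 inside copies of the 18S rRNA gene, by the GENCODE 29 and RefSeq positions on GRCh38: FP671120.3 in RNA18SN2, FP671120.4 in RNA18SP5, FP236383.2 in RNA18SN3 and FP236383.3 in RNA18SN1. FP236383.2 (chr21:8393419-8394341) had 55.6, 56.7 and 70.5 CPM in cells and 1217, 3062 and 673 CPM in sEV (log2 fold change 4.58 ± 0.63, edgeR adjusted p = 0.00203). The other 3 differed from it by at most 0.05 on the log2 scale, and all 4 stayed called with any library left out. Whether the counting used strand is not given in the sources used here, so reads of the 18S rRNA and of these lncRNAs cannot be told apart.

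Several mRNAs and lncRNAs were also called lower by wide margins. ZMYM2, a zinc finger protein of transcriptional co-repressor complexes, had 1507, 1026 and 817 CPM in cells and 13.1, 47 and 24.9 CPM in sEV (log2 fold change -5.51 ± 0.60, edgeR adjusted p = 0.000984). The neighbouring lncRNAs AC051619.7 and AC051619.8 on chromosome 15 went from 142, 105 and 93.5 CPM to 1.09, 2.76 and 3.65 CPM and from 141, 119.9 and 83.9 CPM to 2.18, 6.83 and 9.51 CPM (-5.74 ± 0.55 and -4.48 ± 0.59; edgeR adjusted p = 0.000779 and 0.00172). NFE4, typed as lncRNA in the table, had 124, 74.2 and 129.6 CPM in cells and 2.91, 4.19 and 8.36 CPM in sEV (log2 fold change -4.66 ± 0.49, edgeR adjusted p = 0.000968). NR2F2-AS1 fell by 3.83, CTPS1, which makes cytidine triphosphate, by 3.43, and AL592295.4 by 3.29 on the log2 scale (edgeR adjusted p = 0.000984, 0.00263 and 0.00622). All of these stayed called with any library left out. AL021155.2 was lower too (-2.35 ± 0.36, edgeR adjusted p = 0.00324).

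The 12 features named for the largest rises varied between the sEV libraries. NEFM, a neurofilament protein, had 0.143, 0.0671 and 0.0699 CPM in cells and 176, 350.4 and 5.19 CPM in sEV (log2 fold change 10.59 ± 1.61, edgeR adjusted p = 0.00307). ADCK2, a mitochondrial kinase-like protein, had 0.357, 0.134 and 0.28 CPM in cells and 88.2, 263 and 11.6 CPM in sEV (log2 fold change 8.70 ± 1.26, edgeR adjusted p = 0.00256). The pseudogenes AC007450.4 and HMGB1P25 had 0.0713, 0 and 0 CPM in cells and 283, 141 and 4.52 CPM in sEV (11.85 ± 1.79, edgeR adjusted p = 0.00295) and 0.0713, 0.269 and 0.769 CPM in cells and 160.4, 32.2 and 127 CPM in sEV (7.84 ± 0.96, edgeR adjusted p = 0.00134). These 4 and AC008735.5 (11.52 ± 1.61, edgeR adjusted p = 0.00217) stayed called with any library left out. In the other 7 of the 12, ZBTB11, TBRG4, KCNC4, ZNF236, SNRNP35, ESPNL and LINC02325, the call was lost in at least 1 such fit, and in all but ZBTB11 replicate 1 was far above the rest; TBRG4 had 766, 14.6 and 2.88 CPM and LINC02325 447, 0.959 and 5.19 CPM in the sEV libraries, against 1.85, 1.61 and 2.03 CPM and 0, 0.201 and 0 CPM in cells. Without a symbol in GENCODE 29, ENSG00000298691.1 had no count in cells and 268, 197 and 3.27 CPM in sEV, at least 1875-fold higher by a floor of 3 counts over the cell group. URS0000361A8E, a snoRNA entry, was called lower (3143, 2259.7 and 613 CPM in cells and 27.5, 29.2 and 14.8 CPM in sEV; log2 fold change -6.64 ± 0.73, edgeR adjusted p = 0.000984). LINC01766, among the 10 most abundant named features of sEV, had 123, 89 and 233 CPM in cells and 457, 663 and 490.2 CPM in sEV (log2 fold change 1.65 ± 0.40, edgeR adjusted p = 0.0162), a call lost with any cell library left out. MEOX2 and CCDC187 (3697, 4.31 and 2.59 and 3767, 49.5 and 15.1 CPM in sEV) were not called, nor was PCNA, and all 3 were high in sEV replicate 1 alone (edgeR adjusted p = 0.0764, 0.124 and 0.0602).

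Calls in the lists of cytosolic mRNAs are read beside those of all protein-coding genes, 577 of 5019 higher and 261 lower. Among all features 13.9% were called higher and 12.8% lower. The mRNAs of ribosomal proteins had 5 of 48 called lower and 2 higher in the large subunit (median -0.33) and 1 of 30 lower in the small subunit (-0.04, and 0.25 with library totals). RPL24 was called higher with sEV replicate 1 far above the others (4.07, 3.83 and 3.42 CPM in cells and 397, 9.83 and 11.6 CPM in sEV). Translation factors had 2 of 15 lower, EIF4A1 (-1.83 ± 0.41) and EIF4A2 (-1.19 ± 0.31), with edgeR adjusted p = 0.0122 and 0.0221. Both encode RNA helicases of translation start. As with the host genes above, reads of any snoRNA genes inside genes of these lists cannot be told apart from theirs. The mRNAs of replication-dependent histones, which lack a poly(A) tail, had 12 of 50 called lower and none higher (median -1.11). Among all features 12.8% were called lower, and among protein-coding genes 261 of 5019. HIST2H2BE had 33.1, 16.2 and 19.1 CPM in cells and 4.91, 1.8 and 3.65 CPM in sEV (log2 fold change -2.99 ± 0.54, edgeR adjusted p = 0.00577). HIST1H2AM went from 16.1, 10.3 and 12 CPM to 1.09, 0.839 and 1.54 CPM (-3.71 ± 0.51, edgeR adjusted p = 0.00199). Without sEV replicate 1, 25 of 51 histone mRNAs were called lower, and with a cell library left out 2 to 6. With library totals 6 of 50 were called lower, and by DESeq2 25.

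Of 15 tested mRNAs for proteins that mark vesicles, 2 were higher and 1 lower (median 0.22). Among all features 13.9% were called higher and 12.8% lower, so this list does not stand out by its number of calls. CD81, a tetraspanin of the vesicle membrane, had 0.785, 0.47 and 0.769 CPM in cells and 4.0, 5.15 and 1.83 CPM in sEV (log2 fold change 2.22 ± 0.56, edgeR adjusted p = 0.0196), and ANXA1, which binds phospholipid, 0.713, 0.537 and 0.629 CPM in cells and 2.18, 2.76 and 4.61 CPM in sEV (log2 fold change 2.07 ± 0.46, edgeR adjusted p = 0.0124). Both calls were lost with no filter and with any cell library left out, and that of CD81 also without sEV replicate 2. LAMP1, a membrane protein of lysosomes, had 22.3, 45.3 and 105 CPM in cells and 7.09, 5.03 and 9.32 CPM in sEV (log2 fold change -3.27 ± 0.61, edgeR adjusted p = 0.00612). HSPA8, a chaperone whose gene holds SNORD14 genes, did not differ beyond its spread (624, 661 and 1036 CPM in cells and 801, 750.2 and 2057 CPM in sEV; edgeR adjusted p = 0.568). Among 16 cytoskeleton and glycolysis mRNAs only PKM, pyruvate kinase, was called, lower in sEV (69.6, 26.7 and 77.1 CPM in cells and 4.91, 7.43 and 10.6 CPM in sEV; log2 fold change -3.14 ± 0.51, edgeR adjusted p = 0.00397). Of 4 neutrophil granule genes and 2 genes of primitive cells edgeR called none, while DESeq2, edgeR with DESeq2 size factors, and edgeR with rRNA left out each called 1 granule gene lower. Of 7 nuclear lncRNAs JPX was lower (-5.35 ± 0.82, edgeR adjusted p = 0.00311), NEAT1 of the paraspeckles was not called (10.1, 6.51 and 7.62 CPM in cells and 7.46, 7.55 and 7.78 CPM in sEV; edgeR adjusted p = 0.617), and KCNQ1OT1 and MEG3 were called higher, with replicate 1 far above the other sEV libraries (285, 3.12 and 3.17 and 24.6, 1.44 and 2.4 CPM). The KCNQ1OT1 call was lost with any cell library or sEV replicate 1 left out. MALAT1 had 2, 4 and 5 counts in cells and none in sEV.

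The sEV were also set against the large vesicles (lEV) of the same line, 3 libraries each. Both kinds of vesicle came from cells kept for 2 days without FBS. This comparison shares the sEV libraries with the one above. Of 5813 features 317 were called higher in sEV (5.45%) and 102 lower (1.75%), together 7.21%. The split moved with the scaling, to 1063 higher and 36 lower with library totals. With the stricter filter it was 86 higher and 138 lower, of 836 tested. With any 1 lEV library left out edgeR called 0, with 1449 to 1816 at an unadjusted p under 0.05, while DESeq2 called 958 on all 6. Mitochondrial RNAs were again lower in sEV, 24 of 33 tested (median -3.30), MT-TN by 6.28 ± 1.11 on the log2 scale (edgeR adjusted p = 0.0148) and MT-ND1 by 3.64 ± 0.69 (edgeR adjusted p = 0.0148). Of 49 tested Y RNA genes and copies 12 were called lower in sEV than in lEV and none higher; RNY4 had -2.49 ± 0.77 (edgeR adjusted p = 0.0707) and RNY1 -2.87 ± 0.73 (edgeR adjusted p = 0.0333). The U5 genes did not differ between the vesicles beyond their spread (RNU5B-1 -0.68 ± 0.70, edgeR adjusted p = 0.605). For precursor miRNA entries 2 of 190 were higher and 1 lower in sEV, with a median of 0.53, and for tRNA entries 7 of 426 were higher and 28 lower (median -0.60).

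KG1a, an acute myeloid leukaemia line of more primitive cells, gave the same comparison with 3 sEV and 4 cell libraries, none of them shared with HL60. There 2009 of 8725 features were called higher (23.0%) and 1924 lower (22.1%), together 45.1%. Over 6082 features tested in both lines, log2 fold changes had a Pearson r of 0.773 and a Spearman rho of 0.691, a description across features, which are not independent. In this set 520 were higher in both lines, which is 65.2% of those higher in HL60 and 34.6% of those higher in KG1a. Lower in both were 727, 84.6% of those lower in HL60 and 54.4% of those lower in KG1a, and 7 were called in opposite directions. Mitochondrial RNAs were lower in KG1a sEV in 33 of 34, MT-TN by 6.07 ± 0.67 (edgeR adjusted p = 0.000133). RNY4P6 (3.97 ± 0.56, edgeR adjusted p = 0.000376) and the RNase P entry (1.77 ± 0.46, edgeR adjusted p = 0.00868) were higher there too, and RNU5B-1 lower (-2.33 ± 0.48, edgeR adjusted p = 0.00251).

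Among classes with at least 7 tested features in both lines, mitochondrial tRNA had the lowest median in each. Precursor miRNA entries had a median of -0.90 in HL60 and -2.10 in KG1a, where 170 of 226 were called lower, and tRNA entries -0.10 and -1.11. These class differences between lines were not tested. The abundant lncRNA ENSG00000286171.1, lower in HL60 sEV, had 0.31 ± 0.54 in KG1a (edgeR adjusted p = 0.664), and the test of the difference gave an adjusted p of 0.243. SCARNA6, whose call in HL60 was lost under several settings, had 1.59 ± 0.67 in KG1a, with an edgeR adjusted p of 0.134 for the difference. When the difference between lines was tested across 11938 features, 7 passed (0.0586%), each with a higher sEV over cell ratio in HL60. With library totals 13 were higher and 56 lower in HL60, and with the stricter filter 85 and 64, of 1655 tested.

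**Figure D5:**
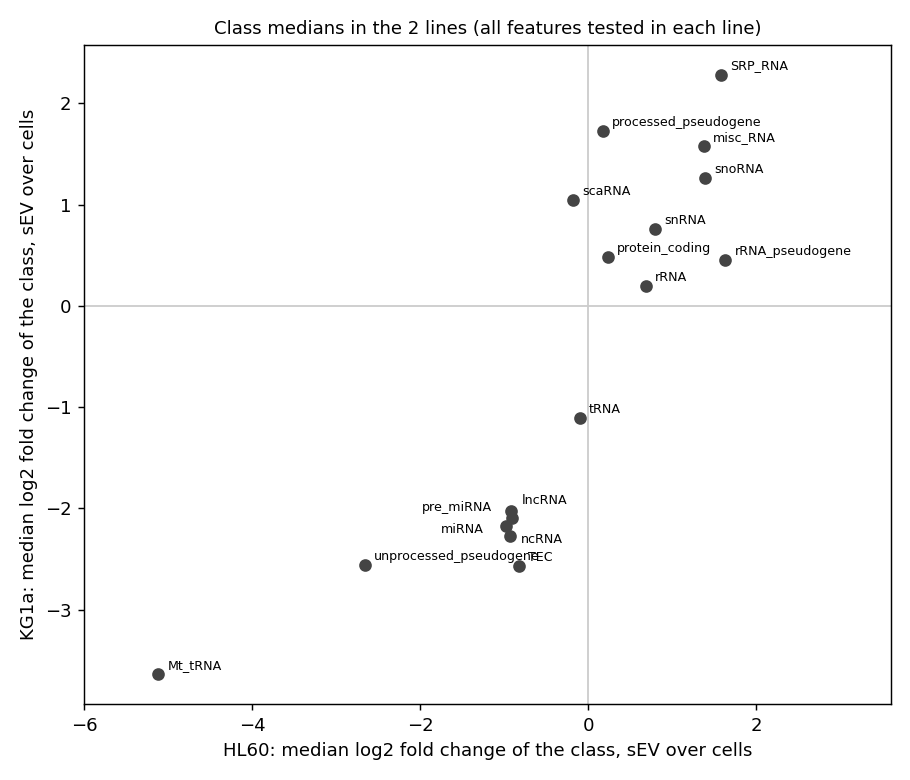
Median log2 fold change (sEV over cells) of each RNA class in HL60 (x) and KG1a (y), over the features of the class tested in each line, for classes with at least 7 in both. Mitochondrial tRNAs lie lowest in both lines (-5.12 and -3.64), and the tRNA, miRNA, precursor and lncRNA classes lie lower in KG1a than in HL60.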

How the data were processed

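The deposited table held raw read counts per feature (whole numbers), which the authors made from reads aligned to GRCh38 (hg38) by Bowtie2, as the submitters' processing notes name them; version, counting program, multiple hits and annotation release are not given in the sources used here. All 38 columns matched a labelled sample. GENCODE 29 gave symbols to 57355 of 90127 features; features without a symbol, such as RNAcentral entries, held 84.4% to 90.4% of counts. edgeR 4.0.16 in R 4.3.3 was used with TMM scaling, filterByExpr, robust quasi-likelihood tests and Benjamini-Hochberg adjustment, on the groups compared only, and was tested on simulated data. Class shares and counts used Python 3.11.15 with pandas 2.3.3. Features of at least 50 CPM whose log2 counts differed by at most 0.2 in every library were taken to share reads.

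Named features were the 12 highest and 12 lowest log2 fold changes with a symbol, a call, no overlap between groups and at least 50 CPM on average (1 for each sharing set), the 10 most abundant in each group, the most abundant with a symbol in each class, and a fixed panel. Further ones were named after their values were seen: called members of the gene lists, the copies of RNY4, U5 and U2, MIR4420, MIR378A, MIR30C1 and abundant entries without a symbol. Some sequences are not reported here. Members and lists were chosen with earlier results of these data known. The labels do not pair sEV with cell libraries, and the reported fit used no pairs. Same-numbered sEV and cell libraries had correlations of deviations of -0.02, 0.01 and -0.05, and those of different numbers -0.026 to 0.042. With 3 libraries in each group these values cannot settle whether they are pairs, which was not tested. Alternatives were DESeq2 1.42.0, other scalings and filters, a replicate block, and each library left out.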

Additional observations from a re-analysis of the deposited data

Results flagged for a closer look

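For 7 features the ratio of sEV to cells differed between HL60 and KG1a by the edgeR test of the difference itself (adjusted p under 0.05). USP15, which removes ubiquitin from proteins, differed by 6.33 ± 0.82 on the log2 scale (adjusted p = 0.00394): HL60 had 1.43, 1.34 and 1.96 CPM in cells and 3.46, 1.8 and 5.19 CPM in sEV, and KG1a 2.75, 11, 10.6 and 4.53 CPM in cells and 0.321, 0.116 and 0.463 CPM in sEV. The 3 tRNA entries differed by 5.30, 5.38 and 5.03. The first had 1.28, 0.739 and 1.68 CPM in HL60 cells and 1.27, 0.479 and 2.02 CPM in HL60 sEV, against 53.8, 119, 105 and 101 CPM in KG1a cells and 4.61, 3.38 and 3.7 CPM in KG1a sEV. The other tRNA entries were close to it in KG1a cells, at 51.7, 117, 104 and 98.6 CPM and at 53.3, 118, 105 and 107 CPM. Whether they count the same reads was not tested. The mature miRNA entry differed by 7.41, with 0, 0.0671 and 0.28 CPM in HL60 cells and 0.909, 0.12 and 1.73 CPM in HL60 sEV. In KG1a it had 10.1, 13.7, 9.71 and 19.1 CPM in cells and 1.71, 0.466 and 0.579 CPM in sEV. It had too few counts to be tested in HL60 alone. The 2 precursor miRNA entries differed by 6.75 and 4.73; the second was at 0.571, 0.269 and 0.559 CPM in HL60 cells but 1864, 2211, 1940.2 and 2547 CPM in KG1a cells. All 7 features were at low levels in HL60, with 7.01 CPM as the highest value in any library, so these differences rest on few HL60 counts. The HL60 groups of 3 libraries each are too small for a test of outlying libraries.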

How the results depend on the processing

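For sEV against cells, 2018 of 7555 tested features were called, and 2722 of 7555 by DESeq2. With no filter 3903 of 51957 were called, and with a filter of 10 CPM in 3 libraries 597 of 1000. Fits with 1 library left out called 527 to 3981, of 8680 to 10694 tested. For sEV against lEV (419 of 5813) the counts were 958 by DESeq2 and 1099 with library totals. They were 1824 of 47897 with no filter and 224 of 836 with the stricter filter. With 1 library left out they were 0 to 1589, of 7221 to 8112 tested. For the line difference (7 of 11938) they were 450 by DESeq2 and 69 with library totals. No filter gave 309 of 62138 and the stricter filter 149 of 1655. DESeq2 size factors gave 14, and 1 library left out 4 to 195, of 11646 to 15250 tested. Same-numbered sEV and lEV libraries had correlations of deviations of 0.127, 0.081 and 0.21. Those of different numbers had -0.149 to 0.013. The labels do not pair them, so the reported fit used no pairs, and whether they are pairs was not tested. With the replicate block 1466, 387 and 5 features were called, in the order of the comparisons above. Counting 1 feature for each set that shares reads, an alternative chosen after seeing the data, left 1941. With rRNA left out of the total, the tRNA share difference became 23.7 points (17.2 with all features) and that of RNase P 0.049 (0.0388). Without the most abundant feature of each library, which is rRNA in sEV replicate 2 and the lncRNA ENSG00000286171.1 elsewhere, the lncRNA difference reversed from -12.6 to 5.21 points, rRNA became 0.362 (7.04), precursor miRNA -15.6 (-9.71), ncRNA -3.9 (-2.27), miRNA -1.52 (-0.605), snoRNA -3.61 (-2.39), scaRNA -0.215 (-0.143) and Mt_tRNA -0.117 (-0.0842). Without that lncRNA in every library, chosen after seeing the data, lncRNA reversed to 1.39, and precursor miRNA became -15.7, ncRNA -3.95, miRNA -1.56, snoRNA -3.62, scaRNA -0.216 and Mt_tRNA -0.117. For the 107 named features, 1276 of 1454 refitted values kept their side of the threshold, 152 lost the call, 26 gained one and none reversed a call. With sEV libraries of 5498168 counts or more, depth limits rare features most; the cause of the lost calls was not tested.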
